A study of Mus musculus with 6 samples.

Results

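Mitochondrial ribosomal protein genes were followed in the colon of carcinogen-treated mice that differ in 1 folate enzyme allele. The members are the array rows that carry a single gene symbol of the Mrpl or Mrps series, with the row of the highest mean level taken where a symbol has several. This gave 71 genes of the 22180 gene symbols that have a row of their own. Of these, 45 encode proteins of the large mitochondrial ribosomal subunit and 25 encode proteins of the small subunit. The assignments come from the known human structures: Mrps18a and Mrps30 bear small-subunit names but sit in the large subunit. Mrps36, the remaining member, belongs to the 2-oxoglutarate dehydrogenase complex in spite of its name. A further 13 rows name a member of the family together with another gene and were left out, so Mrpl30, Mrpl33, Mrpl41, Mrpl43, Mrpl44, Mrpl53 and Mrps6 have no row of their own here.

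The array study compared colonic mucosa labelled normal and taken next to tumours from male BALB/c mice, 4 of them WT (Mthfd1S+/+) and 2 Mthfd1S+/-, which are deficient in the synthetase activity of MTHFD1. Both groups carried a BALB/cAnN background after at least 10 generations of backcrossing. Both were injected intraperitoneally at 3 months of age with 6 mg/kg of the colon carcinogen azoxymethane (AOM). In weeks 1 and 4 after it they were given 3% dextran sulfate sodium (DSS), an agent that damages the lining of the colon, for 4 days each. They were killed in week 13, while the age label reads 7 months. No untreated mice were analysed here, so each difference is one between genotypes under AOM-DSS. Each mouse is 1 array, and the labels call the mice biological replicates; the sources used here do not say how the allele was made.

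The mitochondrial ribosome translates the few proteins encoded by mitochondrial DNA, all of them subunits of the respiratory chain and ATP synthase. Its proteins are encoded in the nucleus and imported. Initiation in mitochondria uses a methionyl-tRNA that carries a formyl group, which the enzyme MTFMT takes from 10-formyltetrahydrofolate. The synthetase activity of MTHFD1 makes that same folate form in the cytosol from formate, much of which leaves mitochondria through a parallel folate pathway.

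Mthfd1 itself read 7.64, 7.63, 7.50 and 7.75 in WT 1 to WT 4 and 7.96 and 7.63 in Mthfd1S+/- 1 and 2, on the log2 scale of the deposited values. The groups overlapped, the difference was 0.17 ± 0.12 (log2, standard error; limma with Benjamini-Hochberg adjustment, adjusted p = 0.890), and the row therefore gives no check of the genotype labels. Arrays correlated between 0.991 and 0.995 with each other. All 18 markers of colonic epithelium were measured, with mean deviations per mouse of -0.068 to 0.080. Of these, 3 were higher and 15 lower in Mthfd1S+/-, with a median difference of -0.063 on the log2 scale. The 12 smooth muscle markers stood at a mean deviation of 0.41 in Mthfd1S+/- 2, of -0.056 in Mthfd1S+/- 1 and of -0.26 in WT 2. All 12 were higher in the Mthfd1S+/- group, but in Mthfd1S+/- 1 only 1 of 12 was above its own mean over the 6 mice. In whole tissue such as this, fewer cells of a type cannot be told apart from less RNA per cell.

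No mitochondrial ribosomal protein gene differed between the genotypes at the adjusted threshold of 0.05. The limma fit with Benjamini-Hochberg adjustment over 23521 rows called 0 of the 71 members and 0.00% of all rows, and the smallest adjusted p of a member was 0.837. At an unadjusted p under 0.05, 0 members were higher in Mthfd1S+/- where 3.36% of all rows were, and 1 member, Mrps14, was lower where 2.44% of all rows were. By direction alone, 40 of the 71 were higher and 31 lower, or 56.3% higher against 54.0% of all rows. The median difference of the members was 0.013 and that of all tested rows 0.012, on the log2 scale and as Mthfd1S+/- minus WT throughout. When each array was centred on its own median, 24 members were higher and 47 lower, with a median of -0.015, again next to that of all rows, at -0.015 with 44.7% higher.

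The differences of single members were mostly small. They ran from -0.31 for Mrps14 to 0.20 for Mrpl28, the median size without regard to sign was 0.058 for members and 0.083 for all rows, and 2 members, Mrps14 and Mrpl20, exceeded 0.25. The large-subunit genes had 27 higher and 18 lower with a median of 0.013. The small-subunit genes had 13 higher and 12 lower with a median of 0.0099. Among the 44 members with a counterpart in the bacterial ribosome, 21 were higher and 23 lower, with a median of -0.0028. Of the 26 that mitochondria added, 19 were higher and 7 lower, with a median of 0.016. No test of these differences between sublists was made.

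**Figure D1:**
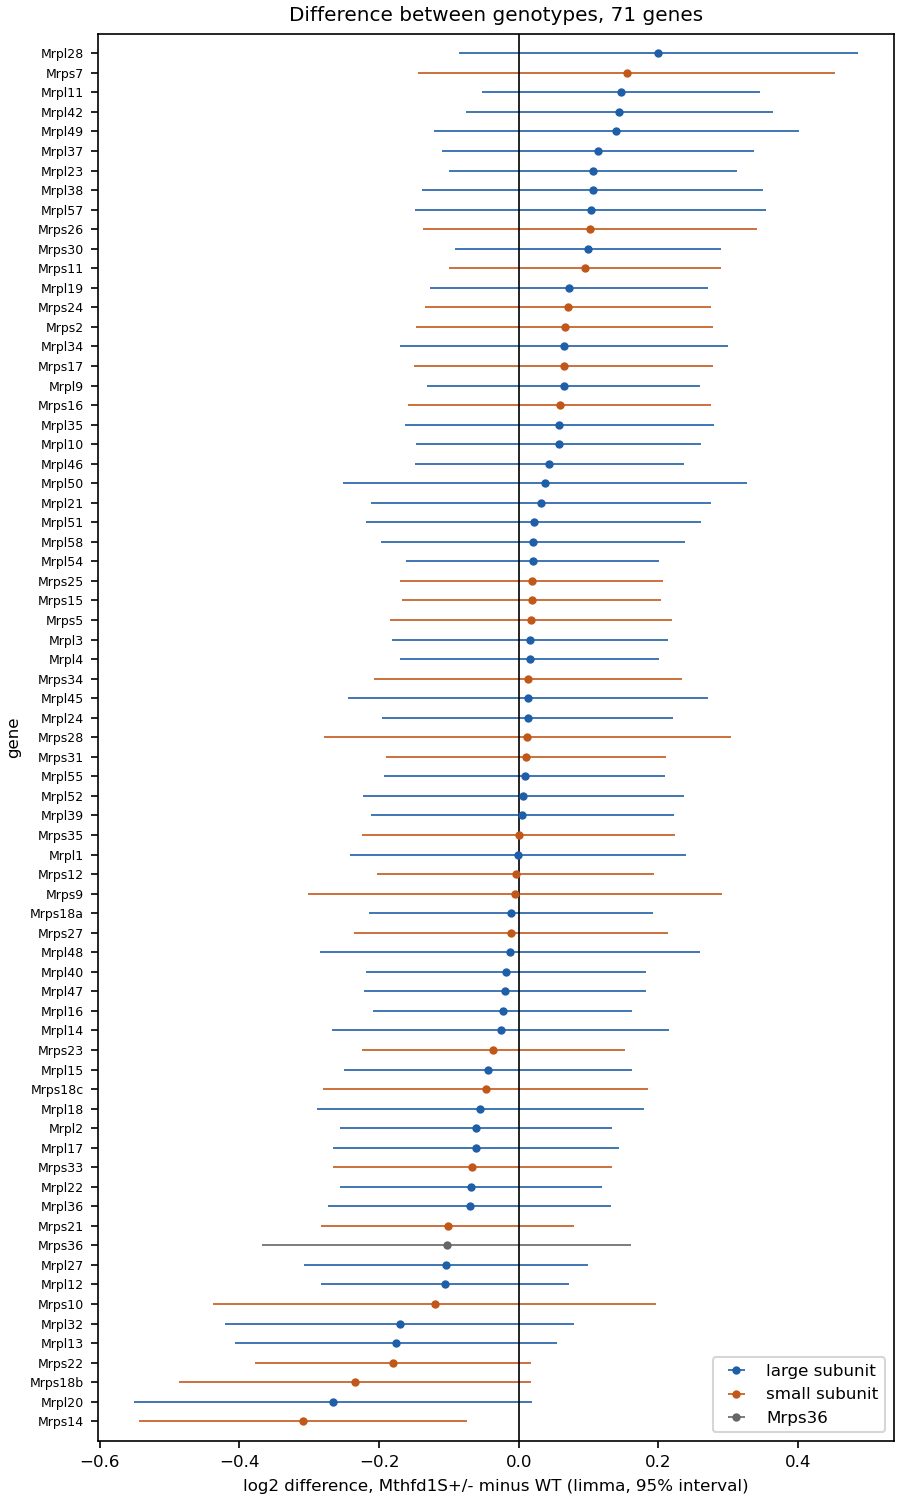
Difference between genotypes for each of the 71 genes on the log2 scale (x axis, Mthfd1S+/- minus WT, with the 95% interval of the limma fit), ordered by size, blue for large-subunit genes, orange for small-subunit genes and grey for Mrps36. Of the 71 intervals, that of Mrps14, from -0.54 to -0.075, lies wholly on one side of 0, and those of Mrpl20, Mrps18b and Mrps22 end just above 0.

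Among the small-subunit genes, Mrps14 showed the lowest p of all members. It encodes the counterpart of bacterial S14 in the head of the small subunit. Its levels were 5.31, 5.59, 5.53 and 5.50 in WT 1 to WT 4 and 5.24 and 5.11 in Mthfd1S+/- 1 and 2. Both Mthfd1S+/- mice were below every WT mouse, but WT 1 was closer to them than to the other WT mice. The difference was -0.31 ± 0.10 (standard error), or 1.24-fold lower, with an unadjusted limma p of 0.0158, an adjusted p of 0.837 and an exact two-sided permutation p of 0.0667, the smallest that the 15 splits of 6 arrays allow. These values lie under the median of the tested rows on each array, 5.95 to 5.99, and no detection calls were used, so signal and background cannot be told apart there.

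Mrps18b encodes a small-subunit protein descended from bacterial S18. It read 8.02, 7.71, 7.73 and 7.75 in WT against 7.63 and 7.51 in Mthfd1S+/-. WT 1 stood far above the other WT mice, which were close together, and both Mthfd1S+/- mice were below all 4. The difference was -0.23 ± 0.11 with an unadjusted limma p of 0.0644 and an adjusted p of 0.837. A second, dimmer row of the same gene read 7.56, 7.36, 7.49 and 7.39 against 7.38 and 7.26. There Mthfd1S+/- 1 lay within the WT range, and the difference was -0.13 ± 0.094.

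Mrps22, a mitochondria-specific protein of the small subunit whose mutation causes mitochondrial disease in humans, read 7.30, 7.13, 7.25 and 7.17 against 7.03 and 7.04. The groups did not overlap, and the difference was -0.18 ± 0.086 (limma adjusted p = 0.845). Mrps21, the counterpart of bacterial S21, read 7.82, 7.88, 7.83 and 7.82 against 7.70 and 7.77. It was among the least variable members in WT, with an SD of 0.026 (n = 4), and its difference was -0.10 ± 0.079 with an exact permutation p of 0.0667.

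Of the 3 paralogs of bacterial S18, Mrps18b alone, on its brighter row, had groups that did not overlap. Mrps18a, whose product is built into the large subunit, read 7.42, 7.48, 7.33 and 7.38 in WT and 7.32 and 7.47 in Mthfd1S+/-, a difference of -0.011 ± 0.089. Mrps18c, whose product takes the place of bacterial S18, read 6.48, 6.51, 6.45 and 6.24 against 6.42 and 6.32, a difference of -0.047 ± 0.10. The interval for Mrps18c, from -0.28 to 0.19, includes the difference seen for Mrps18b.

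Several small-subunit genes were higher in the Mthfd1S+/- group without passing the test. Mrps7, the counterpart of bacterial S7, read 7.79, 7.70, 7.71 and 7.40 against 7.67 and 7.94. The low WT 4 and the high Mthfd1S+/- 2 set its difference of 0.15 ± 0.13, and Mthfd1S+/- 1 was below 3 of the 4 WT mice. Mrps11, the counterpart of bacterial S11, read 7.37, 7.24, 7.26 and 7.26 against 7.43 and 7.32. WT 1 was again apart from the other WT mice, and the difference was 0.095 ± 0.085.

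Of the large-subunit genes, Mrpl20 had the lowest p among those below WT. It encodes the counterpart of bacterial L20, which binds ribosomal RNA early in assembly. The levels were 7.59, 7.41, 7.28 and 7.33 in WT and 6.98 and 7.29 in Mthfd1S+/-. Only Mthfd1S+/- 1 was below the WT range, and WT 1 was the highest mouse. The difference was -0.27 ± 0.12, or 1.20-fold lower, with an unadjusted limma p of 0.0639 and an adjusted p of 0.837.

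Mrpl13 and Mrpl32 encode counterparts of bacterial L13 and L32, and in yeast and mouse the L32 protein is trimmed by the m-AAA protease before it joins the ribosome. Mrpl13 read 7.24, 7.15, 7.02 and 7.05 against 6.84 and 7.03, a difference of -0.18 ± 0.10. Mrpl32 read 6.35, 6.20, 6.41 and 6.54 against 6.27 and 6.14, a difference of -0.17 ± 0.11. In each gene 1 of the 2 Mthfd1S+/- mice was inside the WT range. Mrpl27, the counterpart of bacterial L27, read 5.14, 5.27, 5.29 and 5.12 against 5.11 and 5.09. The groups missed each other by little in a difference of -0.10 ± 0.089. Like those of Mrps14, these values lie under the median of the tested rows, so signal and background cannot be told apart.

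The stalk of the large subunit, which brings translation factors to the ribosome, is built from the products of Mrpl10, Mrpl11 and Mrpl12. Mrpl12 read 7.87, 7.81, 7.83 and 7.83 in WT and 7.71 and 7.74 in Mthfd1S+/-, a difference of -0.11 ± 0.078 with an exact permutation p of 0.0667 and a limma adjusted p of 0.891. Mrpl11 read 6.926, 6.997, 6.812 and 6.899 against 7.023 and 7.087, a difference of 0.15 ± 0.087. Mrpl10 read 8.51, 8.37, 8.46 and 8.37 against 8.56 and 8.42, a difference of 0.057 ± 0.089. Mrpl12 was thus lower and Mrpl11 higher in both Mthfd1S+/- mice than in all WT mice, and neither passed the test.

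Mrpl28 had the highest difference of all members, 0.20 ± 0.12. It read 6.37, 6.54, 6.65 and 6.63 in WT and 6.92 and 6.57 in Mthfd1S+/-. Mthfd1S+/- 1 alone was above the WT range, and WT 1 was the lowest mouse, although it stood above the 6-mouse mean in 55 of the 71 members. Mrpl42, a mitochondria-specific protein, read 7.44, 7.41, 7.56 and 7.42 against 7.50 and 7.71, a difference of 0.14 ± 0.096 that came mainly from Mthfd1S+/- 2. Mrpl49, also specific to mitochondria, read 8.15, 8.45, 8.08 and 8.16 against 8.34 and 8.36, and WT 2 exceeded both Mthfd1S+/- mice in a difference of 0.14 ± 0.11.

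The other members named for a low p and higher levels in Mthfd1S+/- were Mrpl37, Mrpl23, Mrpl38 and Mrps30. Their differences ran from 0.099 for Mrps30 to 0.11 for Mrpl37, and the groups overlapped in all 4. The counterpart of bacterial L23, which lines the exit of the peptide tunnel, was one of these, with Mrpl23 at 7.03, 7.08, 6.95 and 6.89 against 7.14 and 7.05. Mrps36, the subunit of the 2-oxoglutarate dehydrogenase complex, read 5.15, 4.93, 4.90 and 4.78 against 4.92 and 4.76, a difference of -0.10 ± 0.12. WT 1 was its highest mouse, and the groups overlapped. The values of Mrps36 also lie under the median of the tested rows on each array.

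In 8 members the 2 groups did not overlap. Mrpl11 and Mrpl19 were higher in both Mthfd1S+/- mice than in any WT mouse, 2 of 71 where 7.96% of all rows were. Mrpl12, Mrpl27, Mrps14, Mrps18b, Mrps21 and Mrps22 were lower in both, 6 of 71 where 6.04% of all rows were. The first count is below and the second near what the share of all rows would give. Of the 6 lower genes, 4 belong to the small subunit, or 4 of its 25 genes. Mrps18b among them overlapped on its dimmer row, and the subunits were not compared by a test.

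Some of the members were steadier between WT mice than others. Mrps10, Mrpl50, Mrps7 and Mrps9 had the widest spread, with SDs of 0.22, 0.19, 0.17 and 0.17 (n = 4). In Mrps10, the counterpart of bacterial S10, WT 1 and WT 2 read 6.76 and 6.80 while WT 3 and WT 4 read 6.38 and 6.42, and the Mthfd1S+/- mice lay between them at 6.45 and 6.49. Mrpl50 had the same order, with 8.29 and 8.20 in WT 1 and WT 2, 7.89 and 7.94 in WT 3 and WT 4, and 8.08 and 8.15 in the Mthfd1S+/- mice. Mrps9 read 7.38, 7.50, 7.10 and 7.32 against 7.46 and 7.18. Besides Mrps21 and Mrpl12, Mrps33 and Mrpl16 were the steadiest, with WT SDs of 0.030 and 0.038, and the Mthfd1S+/- mice of Mrps33 lay apart at 7.18 and 7.37.

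Across all members the median WT SD was 0.088, below the 0.114 of all tested rows and the 0.107 of the rows left after the dimmest 25% were removed. The 72 nuclear-encoded respiratory chain genes had a median of 0.067 and the 64 cytosolic ribosomal protein genes one of 0.097. The cytosolic list was drawn by symbol, so it also holds paralogs such as Rpl3l, Rpl10l and Rpl32l. Some of its rows, such as those of Rpl10l and Rpl17 at WT means of 3.88 and 4.04, lie under the median of the tested rows. The 2 Mthfd1S+/- mice differed from each other by a median of 0.096 in the members and 0.135 in all rows. They lay on the same side of the WT mean in 41 members, 25 above and 16 below, and on opposite sides in 30, or 42.3% against 43.4% of all rows.

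**Figure D2:**
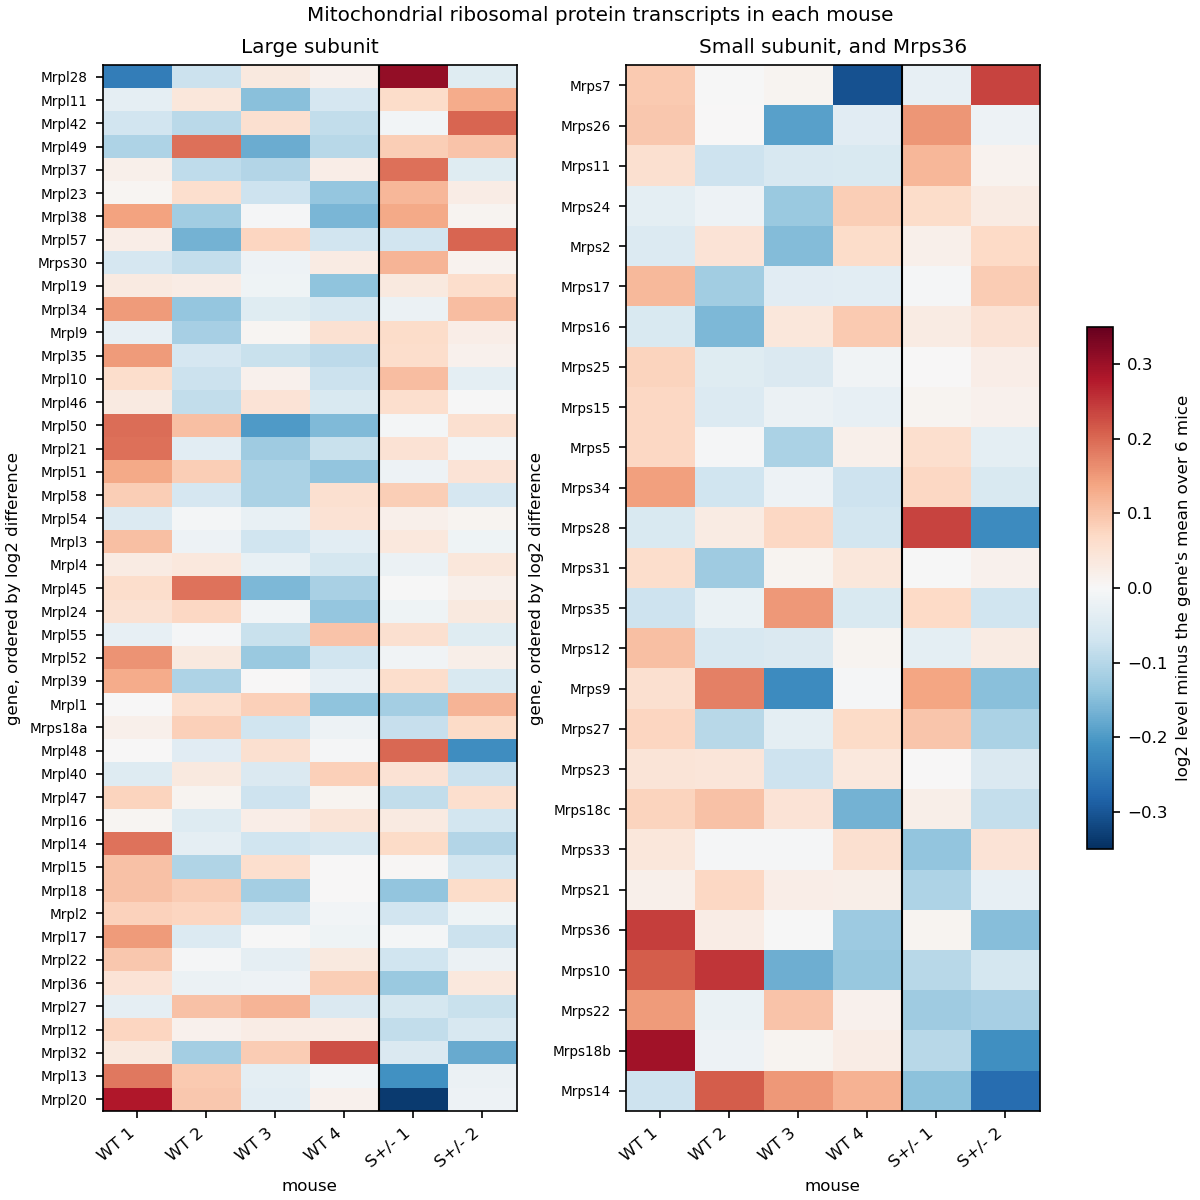
Level of each gene in each mouse as the log2 difference from the gene's own mean over the 6 mice (colour, red above and blue below), with large-subunit genes on the left, small-subunit genes and Mrps36 on the right, and a line between the 4 WT and the 2 Mthfd1S+/- mice. Genes are ordered by the difference between genotypes; the column of WT 1 is mostly red, with 55 of 71 genes above their mean, and that of WT 3 mostly blue, with 24.

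As a group the members stood highest in a WT mouse. In WT 1, 55 of 71 members were above their own mean over the 6 mice, and the other WT mice had 30, 24 and 30. Mthfd1S+/- 1 had 39 and Mthfd1S+/- 2 had 34. Over all tested rows the share above the mean stayed between 47.1% and 55.0% in every mouse, and WT 1 had 48.8%. The mean deviation of the members was 0.060 in WT 1, -0.0024 in WT 2, -0.032 in WT 3 and -0.024 in WT 4, and it was 0.010 and -0.012 in the Mthfd1S+/- mice. WT 1 held the highest value of 31 of the 71 members, where it held the highest of 17.9% of all rows.

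Both subunits took part in the high position of WT 1, with 35 of 45 large-subunit and 19 of 25 small-subunit genes above their mean. Cytosolic ribosomal protein genes were high there too, with 51 of 64 above their mean, but also in WT 2, where 49 were. Respiratory chain genes were above their mean in 45 of 72 cases in WT 1 and in 55 in WT 2. In WT 2, 30 of 71 mitochondrial ribosomal protein genes were above their mean. The list of mitochondrial translation factors had 12 of 14 above their mean in WT 1 and 4 in WT 2. The assembly and rRNA modification genes had 19 of 25 and 11, and the list of mitochondrial aminoacyl-tRNA synthetases 20 of 21 and 13. The first and the last of these lists also hold genes of other roles, named below. The proliferation markers had mean deviations of 0.21, 0.14, -0.13 and -0.17 in WT against 0.15 and -0.20 in Mthfd1S+/-, and the smooth muscle markers -0.18, -0.26, -0.024 and 0.11 against -0.056 and 0.41. Adipocyte markers stood at 0.40, -0.10, 1.25 and -0.41 in WT against -0.63 and -0.52, and all 7 were lower in Mthfd1S+/-, with a median difference of -0.89. WT 1 was thus high in proliferation markers and low in muscle markers, and their part in the levels of the members was not tested.

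**Figure D3:**
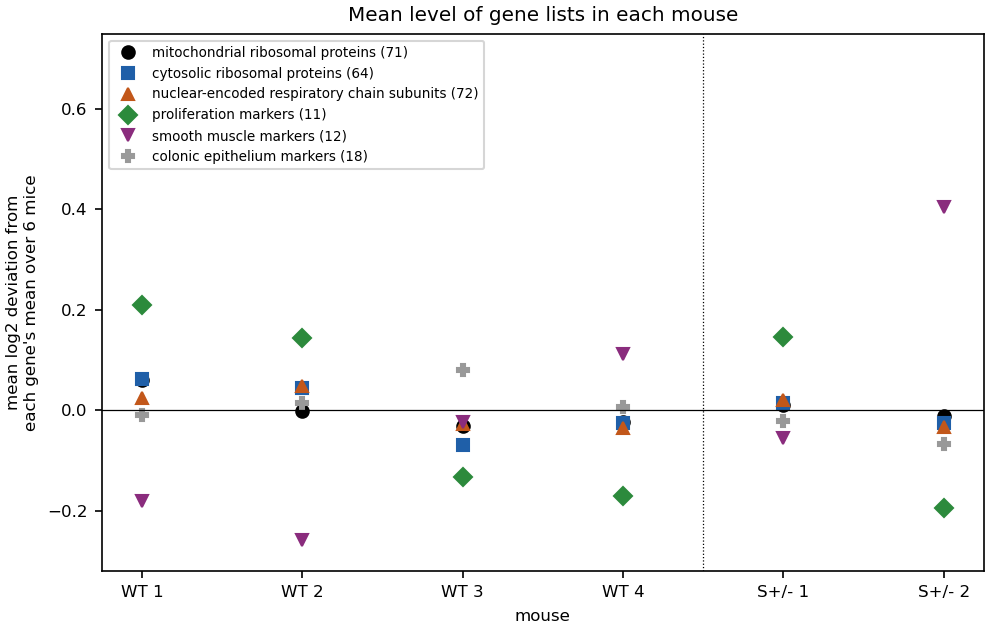
Mean log2 deviation of 6 gene lists from each gene's mean over the 6 mice (y axis), by mouse (x axis), with the number of genes in the legend and a dotted line between the 4 WT and the 2 Mthfd1S+/- mice. The mitochondrial ribosomal proteins stay between -0.032 and 0.060, while the proliferation markers run from -0.20 to 0.21 and the smooth muscle markers from -0.26 to 0.41.

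The labels give each mouse an identifier that starts with the letter A or B, whose meaning is not stated. WT 1 and Mthfd1S+/- 1 carry A and the other 4 mice carry B, so the comparison was repeated within each letter. Within A, Mthfd1S+/- 1 minus WT 1 gave a median of -0.066 over the members, with 25 of 71 higher, where 53.8% of all rows were higher. Within B, Mthfd1S+/- 2 minus the mean of 3 WT mice gave a median of 0.026, with 40 of 71 higher, where 51.0% of all rows were. The sign was the same under both letters for 38 members, or 53.5%, against 53.1% of all rows. The median of the members was thus below 0 under A and above 0 under B.

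Of the 71 genes, 9 were read by 2 rows, and the second row did not always repeat the first. In Mrpl10, Mrpl36 and Mrpl47 the sign turned. For Mrpl47, the counterpart of bacterial L29, the brighter row gave -0.019 ± 0.088 and the dimmer row 0.14 ± 0.15. For Mrpl36 the values were -0.070 ± 0.088 and 0.010 ± 0.12, and for Mrpl10 they were 0.057 ± 0.089 and -0.058 ± 0.095. Mrps16 and Mrps17 had similar values on both rows, 0.058 and 0.032 for the first and 0.064 and 0.10 for the second, and Mrps5 had 0.018 and 0.082. Mrps18c was at -0.047 ± 0.10 on the brighter and at -0.22 ± 0.15 on the dimmer row. Mrpl12 was at -0.11 on the brighter row and at -0.017 ± 0.13 on the dimmer one, where the groups overlapped. Which stretch or copy of a gene each row reads is not stated in these sources.

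**Figure D4:**
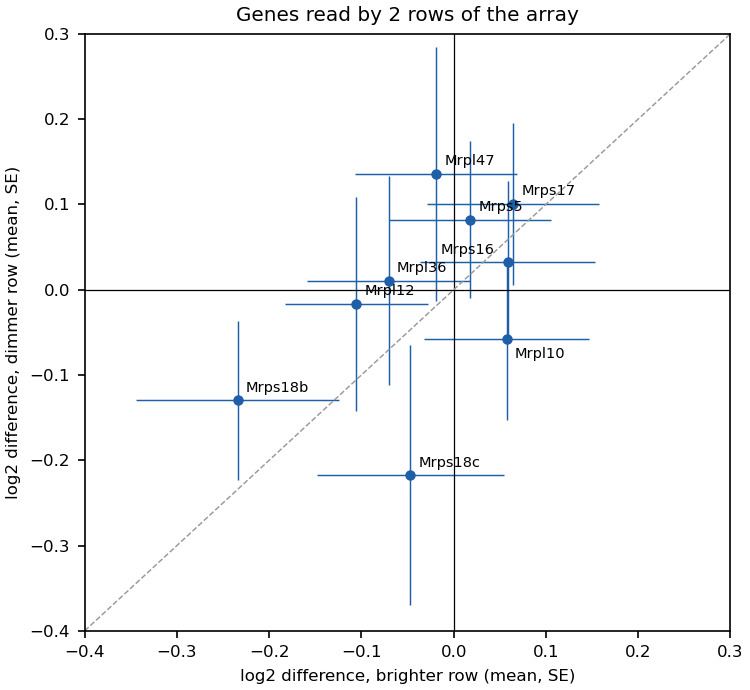
Log2 difference between genotypes (Mthfd1S+/- minus WT) on the brighter row (x axis) and on the dimmer row (y axis) of the 9 genes read by 2 rows, with standard errors as bars and the line of equal values dashed. Mrpl10, Mrpl36 and Mrpl47 have opposite signs on their rows, and Mrps18b is negative on both, at -0.23 and -0.13.

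The supply of formyl groups to mitochondrial initiation was described with a list of 15 genes, 13 of them measured. None of the 13 passed the adjusted or the unadjusted threshold, 7 were higher and 6 lower, and the median was 0.0067. Mtfmt, which puts the formyl group on the initiator tRNA, read 7.66, 7.53, 7.33 and 7.41 in WT and 7.28 and 7.42 in Mthfd1S+/-. The groups overlapped, and the difference was -0.13 ± 0.11. Metap1d, the mitochondrial methionine aminopeptidase, differed by -0.046 ± 0.090.

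Within the mitochondrial folate pathway of that list, Mthfd1l, the mitochondrial formyltetrahydrofolate synthetase, read 7.14, 6.77, 7.25 and 7.29 against 7.15 and 6.43. Its difference of -0.32 ± 0.21 came from Mthfd1S+/- 2 alone, and WT 2 was low as well. Mthfd2, the dehydrogenase and cyclohydrolase of dividing cells, read 6.73, 6.57, 6.68 and 6.45 against 6.47 and 6.44, a difference of -0.15 ± 0.099. Its relative Mthfd2l was at -0.0068 ± 0.096, the serine hydroxymethyltransferase Shmt2 at 0.088 ± 0.12 and the formyltetrahydrofolate dehydrogenase Aldh1l2 at 0.062 ± 0.094. The folate carrier Slc25a32 was at 0.0091 ± 0.088. The glycine cleavage genes Amt, Gldc and Gcsh were at 0.12, 0.054 and 0.0067, and Sardh and Dmgdh, which oxidise sarcosine and dimethylglycine, at 0.13 and -0.074.

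Mitoribosome proteins under other symbols were measured for 3 genes. Gadd45gip1, a large-subunit protein near the tunnel exit, read 6.09, 6.13, 6.05 and 6.18 in WT and 6.26 and 6.25 in Mthfd1S+/-. In this gene both were above all WT mice, as in 7.96% of all rows. Its difference was 0.14 ± 0.081, with a limma adjusted p of 0.865. Dap3, a GTP-binding protein of the small subunit, was at -0.031 ± 0.092. Ptcd3, also of the small subunit, was at -0.074 ± 0.10 on its brighter row and at -0.24 ± 0.088 on a second row, with an unadjusted limma p of 0.0242 and an adjusted p of 0.837 for the latter.

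The remaining genes of mitochondrial translation did not pass the adjusted threshold either. The list of 14 translation factors also holds genes of other roles, Oxa1l, Cox18 and Lrpprc. It had 8 higher and 6 lower with a median of 0.065. Its highest difference was that of Oxa1l, the insertase that places the new chains in the inner membrane, at 0.16 ± 0.093. Tsfm, an elongation factor, was at 0.14 ± 0.086 and Taco1, an activator of COX1 translation, at 0.13 ± 0.086. Both Mthfd1S+/- mice exceeded every WT mouse in these 2 of 14 genes, as they did in 7.96% of all rows. The 25 assembly and rRNA modification genes had 15 higher and 10 lower with a median of 0.047. Of these, the rRNA methyltransferase genes Mrm3 and Mrm1 were at 0.17 and -0.14 and the pseudouridine synthase gene Rpusd4 at 0.18. The list of 21 mitochondrial aminoacyl-tRNA synthetases also holds Gatb, Gatc and Qrsl1, which encode subunits of an amidotransferase. Kars and Gars in it encode the cytosolic enzymes as well. The list had 8 higher and 13 lower with a median of -0.017. Within it Pars2, for proline, was at -0.20 ± 0.088. The limma fit gave it an unadjusted p of 0.0511 and an adjusted p of 0.837. Hars2 and Cars2, for histidine and cysteine, were at -0.070 and -0.087.

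The list of 19 mitochondrial transcription and biogenesis factors had 11 higher and 8 lower with a median of 0.043. At an unadjusted limma p under 0.05, 2 of its genes were lower, where 2.44% of all rows were. At the same threshold 0 were higher, where 3.36% of all rows were. Top1mt, the topoisomerase of mitochondrial DNA, read 6.37, 6.31, 6.36 and 6.20 in WT and 6.09 and 6.08 in Mthfd1S+/-, a difference of -0.23 ± 0.087 (limma, unadjusted p = 0.0298, adjusted p = 0.837). Ssbp1, which coats single-stranded mitochondrial DNA, read 7.49, 7.51, 7.39 and 7.46 against 7.25 and 7.30, a difference of -0.19 ± 0.082 (limma, unadjusted p = 0.0487, adjusted p = 0.837). In both genes all WT mice were above both Mthfd1S+/- mice, as in 6.04% of all rows. Across the list both Mthfd1S+/- mice were above all WT mice in 3 genes and below them in 3, against 7.96% and 6.04% of all rows. A second, dimmer row of Ssbp1 was at -0.19 ± 0.14 with an unadjusted limma p of 0.211. Tfb2m, a mitochondrial transcription factor, had 3 rows: the brightest, used for the list, was at 0.14 ± 0.12, the next at -0.058 ± 0.098 and the dimmest at -0.65 ± 0.17. The last had an unadjusted limma p of 0.0042 and an adjusted p of 0.837, with a sign opposite to the first. The means of the 2 dimmer Tfb2m rows, 5.69 and 4.97, lie under the median of the tested rows, so signal and background cannot be told apart there. Ppargc1a, a coactivator of mitochondrial biogenesis, read 7.68, 7.99, 8.32 and 8.32 against 8.70 and 8.29, and the groups overlapped in a difference of 0.42 ± 0.20.

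The transcripts that the mitochondrial ribosome translates were read for 10 of 13 genes of the mitochondrial genome. Of the 10, 1 was higher and 9 lower, the median difference was -0.041, and the smallest adjusted p was 0.948. All 10 were below their own mean in WT 1 and in Mthfd1S+/- 1, the 2 mice with the identifier letter A, and 8 to 10 were above it in each of the other mice. WT 1 thus held the highest transcript readings of many mitochondrial ribosomal protein genes but low readings for the mitochondrially encoded transcripts. Its mean deviation in the latter was -0.052, and that of Mthfd1S+/- 1 was -0.071. ND6, ND4L and ND2, which encode subunits of complex I, differed by -0.076, -0.046 and -0.047. Apart from ND6, at a WT mean of 10.8, the rows of this list lie near the highest value of the arrays, 13.5, and the part of compression there in the count and the deviations was not tested.

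Related families had medians close to 0 as well. The 64 cytosolic ribosomal protein genes had 32 higher and 32 lower with a median of -0.00095, and Rps13 and Rps27 were lower at unadjusted limma p values of 0.0093 and 0.0448, each with an adjusted p of 0.837. The 72 respiratory chain genes had 35 higher and 37 lower with a median of -0.0029. Of these, Cox7c was lower at an unadjusted limma p of 0.00279 with the same adjusted p. It read 4.80 to 5.28, under the median of the tested rows, so signal and background cannot be told apart there. At an unadjusted limma p under 0.05, 0 genes of either family were higher, where 3.36% of all rows were. Lower at that threshold were 2 of 64 and 1 of 72, against 2.44% of all rows. No test of a difference between these families and the mitochondrial ribosomal proteins was made.

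**Figure D5:**
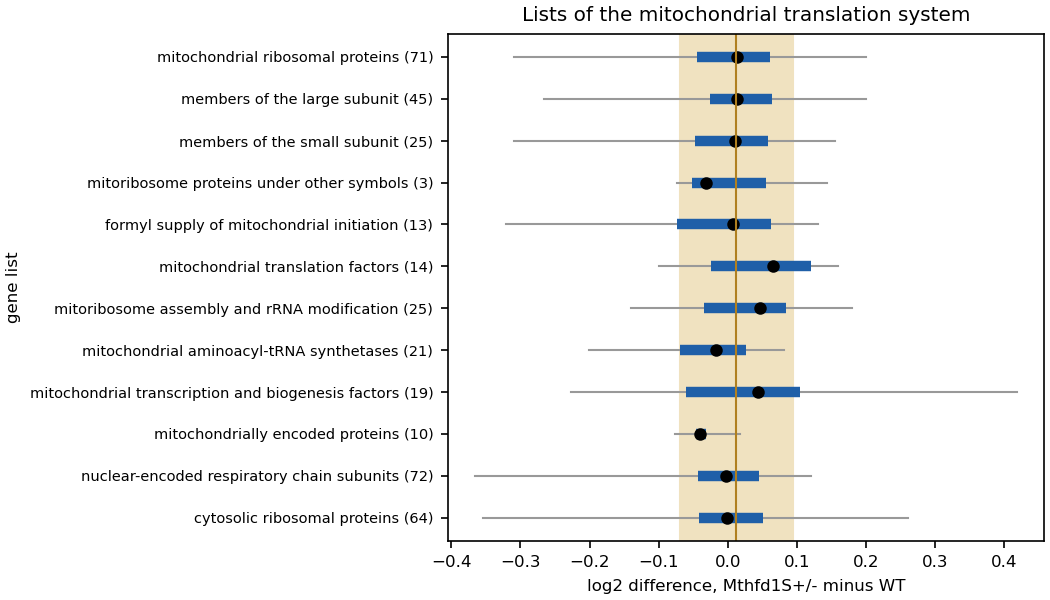
Log2 difference between genotypes (x axis, Mthfd1S+/- minus WT) for 12 lists of the mitochondrial translation system and its neighbours, with the number of genes in brackets, a dot for the median, a thick bar for the middle 50% of genes and a thin line for the full range. The shaded band and its line mark the middle 50% and the median of all 23521 tested rows, and every list median lies inside the band.

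Promoters of nuclear genes for mitochondrial proteins often bind NRF1, the ETS-family factor GABP and YY1. Of the 71 members, 62 had a window in the RefSeq promoter table (GRCm38.p6), which runs from 250 bases before to 50 after a start site. Both strands were searched for GCGCATGCG (NRF1), CCGGAAG (ETS) and AAGATGGCG (YY1). The NRF1 letters were found in 7 member genes, or 11.3%, against 2.61% of the 17492 protein-coding genes in the table. ETS letters were in 23, or 37.1% against 12.9%, and YY1 letters in 8, or 12.9% against 2.14%. At least 1 of the 3 motifs was in 33 of the 62 genes, or 53.2%, against 16.6%. Such a match is a description of letters and not a binding site.

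Members named above for their p that hold the NRF1 letters were Mrps18b and Mrpl32, and the bases before their start sites are printed because they carry these letters at different distances from those sites, 250 bases for Mrps18b and the last 117 for Mrpl32. Capitals mark NRF1 letters on either strand. The first lies on the minus strand at chr17:35916441-35916690 and the second on the minus strand at chr13:14613038-14613154 of GRCm38.p6.
Mrps18b: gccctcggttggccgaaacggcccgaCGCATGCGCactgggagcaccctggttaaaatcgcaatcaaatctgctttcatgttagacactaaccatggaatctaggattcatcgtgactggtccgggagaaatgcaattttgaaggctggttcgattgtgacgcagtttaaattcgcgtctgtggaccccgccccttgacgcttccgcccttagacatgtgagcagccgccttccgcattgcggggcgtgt
Mrpl32: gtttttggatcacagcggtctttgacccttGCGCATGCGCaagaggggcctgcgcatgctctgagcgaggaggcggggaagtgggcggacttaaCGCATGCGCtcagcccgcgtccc
In Mrps18b the match begins 224 bases before the start site, and an ETS match lies past the printed stretch. In Mrpl32 matches begin 87, 86 and 23 bases before the start site, the first 2 of them overlapping on opposite strands. Both genes read lower in Mthfd1S+/-, at -0.23 and -0.17, without passing the test. The 7 genes with NRF1 letters had 3 higher and 4 lower with a median of -0.061, the 23 with ETS letters 9 higher and 14 lower with a median of -0.011, and the 8 with YY1 letters 5 higher and 3 lower with a median of 0.065. The 29 members with none of the letters had 17 higher and 12 lower with a median of 0.013.

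Windows of 22 members, or 35.5% of the 62, overlapped the window of another gene on the opposite strand, against 12.5% of protein-coding genes in the table. Mrps11 and Mrpl46 are such a pair within the family, with start sites 42 bases apart, and their differences were 0.095 ± 0.085 and 0.044 ± 0.084. Mrps12 faces Sars2, the mitochondrial synthetase for serine, and the differences were -0.0042 ± 0.087 and -0.0056 ± 0.091. Mrpl32 faces the proteasome gene Psma2, at -0.17 ± 0.11 and -0.034 ± 0.078. Counting Mrps11 and Mrpl46 once, both genes had the same sign in 13 of 21 pairs, and 0 of the partners were at an unadjusted limma p under 0.05.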

How the data were processed

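Total RNA of each of 6 mice was hybridised to its own Mouse Gene 2.0 ST array. Per the submitters' processing notes, the authors used Affymetrix Expression Console. The deposited values were taken as log2 from their range, 1.06 to 13.5. No source used here states the software's version, the summarisation, the normalization or a genome build. Of 41345 rows, 23521 carry 1 symbol in the platform annotation, 1814 several and 16010 none, and only the first kind was tested. RefSeq (GRCm38.p6) matched 23328 of them by gene identifier, with 0 symbol changes.

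The comparison of genotypes used limma 3.58.1 (lmFit, then eBayes, two-sided, no covariate, 4 residual and 4.35 prior degrees of freedom) under R 4.3.3, with Benjamini-Hochberg adjustment over all 23521 rows and a threshold of 0.05. Exact permutation tests ran over the 15 splits of the arrays. The steps were tested on simulated data. All 71 members passed a filter that drops the dimmest 25% of rows, so the filter removed none. Precision is limited by the number of arrays.

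The members and 15 gene lists were chosen with earlier results of these data known. Named are, per direction, the 10 members with the smallest p, the 4 with the widest and the 4 with the narrowest WT SD, those with several rows, the Mrps18 paralogs, all measured genes of the formyl supply list and of mitoribosome proteins under other symbols, and up to 3 genes of each other list. Mrpl19, Mrpl46, Sars2, Psma2, Tfb2m, Rpl3l, Rpl10l, Rpl32l and Rpl17 were named after their values were seen. Of the marker lists, those with no value above were neuron and glia (10 of 11 genes higher), fibroblast (10 of 10), immune (6 of 16) and endothelial markers (2 of 6). Alternatives were other normalizations, the other row per gene, each array left out, the replicate number or identifier letter as a covariate, a prior trend, and other filters.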

Additional observations from a re-analysis of the deposited data

Results flagged for a closer look

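Levels in the 4 WT mice were set against Dixon's criterion, which marks a mouse whose gap to its nearest neighbour takes up more of the group's range than the 95% critical value. Of 76 values tested, 6 were marked, and chance marks about 1 in 20. WT 1 was apart from the other WT mice in 3 of them. In Mrps11 it was high, with a gap of 0.854 of the range, and in Mrps18b it was high with 0.862. In the mean level of the mitochondrially encoded proteins it was low, with 0.860. WT 2 was high in Mrps21, with 0.910, where the other 3 mice lay close together. WT 4 was low in Dap3, with 0.898, and high in Hars2, with 0.842, where the WT SD was only 0.0087.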

How the results depend on the processing

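Under the alternatives listed above, the median of the members ran from -0.022 (replicate block) to 0.032 (without WT 1). With a mouse left out it was -0.0055 to 0.035 for the large subunit and -0.029 to 0.030 for the small subunit. The comparisons within each identifier letter went further, with medians of the members of -0.066 under A and 0.026 under B. The count of rows at an adjusted p under 0.05 was 0 in each of the alternatives. The count of members lower at an unadjusted p under 0.05, 1 as reported, was 3 after median centring (Mrps14, Mrps18b, Mrps22), 3 with the replicate block (Mrpl20, Mrps10, Mrps18b), and 2 after quantile normalization (Mrpl20, Mrps14), with the identifier letter or with a prior trend (Mrps14, Mrps18b). With single mice left out it stayed at 1, which without Mthfd1S+/- 2 was Mrpl20 in place of Mrps14, and the count higher was 0 to 1 (Mrpl49 without WT 2, Mrpl28 without Mthfd1S+/- 2). Deviations of same-numbered mice correlated at 0.117 and -0.044. With only 2 Mthfd1S+/- mice, their deviations mirror each other, so this check cannot decide whether the numbers pair the mice. No pairing was assumed, and with the replicate block 29 members were higher and 42 lower.

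Companion medians moved as follows. Mitoribosome proteins under other symbols gave -0.059 after median centring, -0.048 after quantile normalization and -0.036 to 0.058 with a mouse left out. Formyl supply gave -0.021 after centring, -0.012 with the letter and -0.071 to 0.042 with a mouse left out. The latter range was -0.081 to 0.046 for the synthetase list, 0.0051 to 0.048 for biogenesis factors and -0.091 to 0.015 for mitochondrially encoded proteins.

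Of the named members, signs turned under the replicate block for Mrpl50 (-0.13), Mrpl16 (0.0032) and Mrps5 (-0.022), under centring for Mrps5 (-0.0097), with the letter for Mrps5 (-0.0071) and Mrps18a (0.00079), and on the other row for Mrpl10 (-0.058), Mrpl36 (0.010) and Mrpl47 (0.14). With a mouse left out the ranges were -0.0049 to 0.23 for Mrpl37, -0.024 to 0.11 for Mrpl50, -0.15 to 0.14 for Mrps9, -0.16 to 0.027 for Mrps33, -0.071 to 0.025 for Mrpl16, -0.014 to 0.13 for Mrpl10, -0.15 to 0.014 for Mrpl36, -0.092 to 0.053 for Mrpl47, -0.029 to 0.064 for Mrps5, -0.11 to 0.0040 for Mrps18c and -0.085 to 0.063 for Mrps18a. The causes were not tested. The median standard error was 0.106, and with 2 Mthfd1S+/- mice even the difference of -0.31 in Mrps14 did not pass the adjusted threshold.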
